A study of Mus musculus with 9 samples.

Results

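8 genes were followed through 9 left ventricular RNA sequencing libraries: *Ckmt2*, *Ckm*, *Ckb*, *Slc6a8*, *Ak1*, *Ak3*, *Ak4* and *Ppif*. All but *Ppif*, which encodes a regulator of the permeability transition pore, belong to the creatine kinase and adenylate kinase systems. The 8 genes are among the 52636 counted, and all 8 passed the expression filter with 16322 genes tested. The genes were chosen around phosphate energy transfer, with earlier results of these libraries known. The libraries were set side by side by their measured *Vdac2* level. The study asked what loss of voltage dependent anion channel 2, a pore of the outer mitochondrial membrane, does to the heart. All mice were C57BL6J and 16 weeks old. The KO genotype carried floxed *Vdac2* alleles with a Cre driven by the αMHC promoter, which acts in cardiac myocytes, so other cells of the ventricle kept the gene. WT littermates carried either the floxed allele or the Cre, and which of these each library carried is not given in the sources used here. Of the libraries, 5 (1 to 5) carry the label WT and 4 (6 to 9) the label KO. The labels do not say whether each library came from a separate mouse, so errors and p-values measure the spread between these libraries.

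The heart stores high-energy phosphate as phosphocreatine. Mitochondrial creatine kinase charges creatine beside the adenine nucleotide translocase, and cytosolic creatine kinases return the phosphate to ADP at the myofilaments and pumps. Adenylate kinases interconvert ATP, ADP and AMP (or GTP and AMP) and pass on an energy signal through AMP, while creatine itself is taken up from blood, since cardiomyocytes make little of it. VDAC is the route of ATP, ADP and creatine metabolites across the outer mitochondrial membrane.

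*Vdac2* (ENSMUSG00000021771, chromosome 14, 21825238 to 21845879 of GRCm38), the deleted gene, went against several labels. In libraries 1 to 5, labelled WT, it was at 20.2, 366, 58.5, 365 and 21.3 CPM, a count scaled to the TMM-normalized library size. In libraries 6 to 9, labelled KO, it was at 384, 20.5, 421 and 19.1 CPM. Its log2 fold change, labelled KO over labelled WT, was 0.35 with a standard error of 1.19, and its Benjamini-Hochberg adjusted p was 0.921 in the quasi-likelihood test of edgeR. Libraries 1, 5, 7 and 9, under 100 CPM, are called Vdac2-low below, and libraries 2, 4, 6 and 8, over 300 CPM, are called Vdac2-high. These names stand for a measured level and not for a genotype. The library nearest to the lower threshold was library 3, at 58.5 CPM, which is given apart, and the nearest to the upper threshold was library 4, at 365 CPM. Because the sets were selected on a measured value, they are described by the values of each library and by the log2 ratios over the 16 pairs of a Vdac2-low and a Vdac2-high library, without a test.

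Library 3 stood apart from the other 8 libraries. Its 7 cardiomyocyte markers summed to 13750 CPM, against 49565 to 68214 CPM in the others, and each of the 7 was lowest there. Its 5 fibroblast markers summed to 3946 CPM, against 877 to 1342 CPM in the others. Of these, 3 were highest there, with *Postn* at 2508 and *Col1a1* at 691 CPM making up most of the sum, while *Dcn* was lowest there (454 CPM) and *Lum* was within the range of the others. Its 4 macrophage markers summed to 463 CPM, against 97.5 to 199.8 CPM, and each of the 4 was highest there. Skeletal muscle markers summed to 736 CPM, of which 729 was *Acta1*, an actin that heart muscle also expresses, against 64.4 to 234 CPM, and endothelial markers to 259.6 CPM, below the 341 to 520.3 CPM of the others. The smooth muscle sum, at 535 CPM, was within the range of the others (228 to 545 CPM). Its members went different ways: *Cnn1* (36.4 CPM) and *Tagln* (84.3 CPM) were highest there, and *Myh11* (11.7 CPM) was lowest. *Acta2* (402 CPM) was within the range of the others. Mitochondrially encoded genes took 9.07% of its counts, against 16.8% to 19.2% elsewhere. Of the atrial markers, *Sln* was under the level of 3 counts in every library. *Myl7* reached at most 1.13 CPM and *Myl4* at most 2.99 CPM, both in library 3. *Myl2*, the ventricular light chain, ranged from 8597 to 11375 CPM outside library 3. Totals ran from 27345052 to 44673988 counts, so 3 counts corresponded to 0.0693 to 0.114 CPM, and the lowest count of any of the 8 genes in any library was 445 (*Ckb*). Such limits cover counting error only. The labels coincided with the flow cell lane and with expression of *Xist*, which was at most 0.152 CPM in libraries labelled WT and at least 335 CPM in those labelled KO. Label, lane and sex therefore cannot be told apart.

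The creatine kinases *Ckmt2* and *Ckm* were the most abundant of the 8 genes, while *Ckb* was among the least abundant. *Ckmt2* (ENSMUSG00000021622, chromosome 13, 91853387 to 91876885), the sarcomeric mitochondrial creatine kinase, sits in the intermembrane space. It was at 1980.2, 1991, 1905 and 2268 CPM in the Vdac2-low libraries 1, 5, 7 and 9. In the Vdac2-high libraries 2, 4, 6 and 8 it was at 2044, 2043, 1990.3 and 2354 CPM. The ranges overlapped, and the highest of the 8 libraries was 1.24 times the lowest, against a median of 1.46 times over all genes tested. That median covers genes of every level, with no matching to the high level of *Ckmt2*. The median log2 ratio over pairs was −0.05 (−0.31 to 0.19). In library 3 *Ckmt2* was at 484 CPM, 25.4% of the lowest other library.

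*Ckm* (ENSMUSG00000030399, chromosome 7, 19404776 to 19422841), the muscle-type cytosolic enzyme that also binds the sarcomere M line, was at 1668, 1891, 1844 and 2280.1 CPM in libraries 1, 5, 7 and 9. It was at 2007, 1981, 2162 and 2346 CPM in libraries 2, 4, 6 and 8. Library 9 lay inside the Vdac2-high range, and the other Vdac2-low libraries lay below it. The median log2 ratio over pairs was −0.16 (−0.49 to 0.20). Library 3 was again lowest, at 348 CPM or 20.9% of the lowest other library.

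*Ckb* (ENSMUSG00000001270, chromosome 12, 111669361 to 111672338), the brain-type cytosolic enzyme, which many non-muscle cells also express, showed the opposite order in library 3. It was at 16.6, 19.3, 25.1 and 27.4 CPM in libraries 1, 5, 7 and 9, and at 16.3, 17.3, 22.5 and 22.3 CPM in libraries 2, 4, 6 and 8. The ranges overlapped, with a median log2 ratio over pairs of 0.17 (−0.44 to 0.75). Library 3 was highest at 40.4 CPM, 1.47 times the highest other library. By label, *Ckb* was at 22.3 to 27.4 CPM in the 4 libraries labelled KO. It was at 16.3 to 19.3 CPM in the 4 labelled WT other than library 3, which was above both. The test between the labels is given below.

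**Figure D1:**
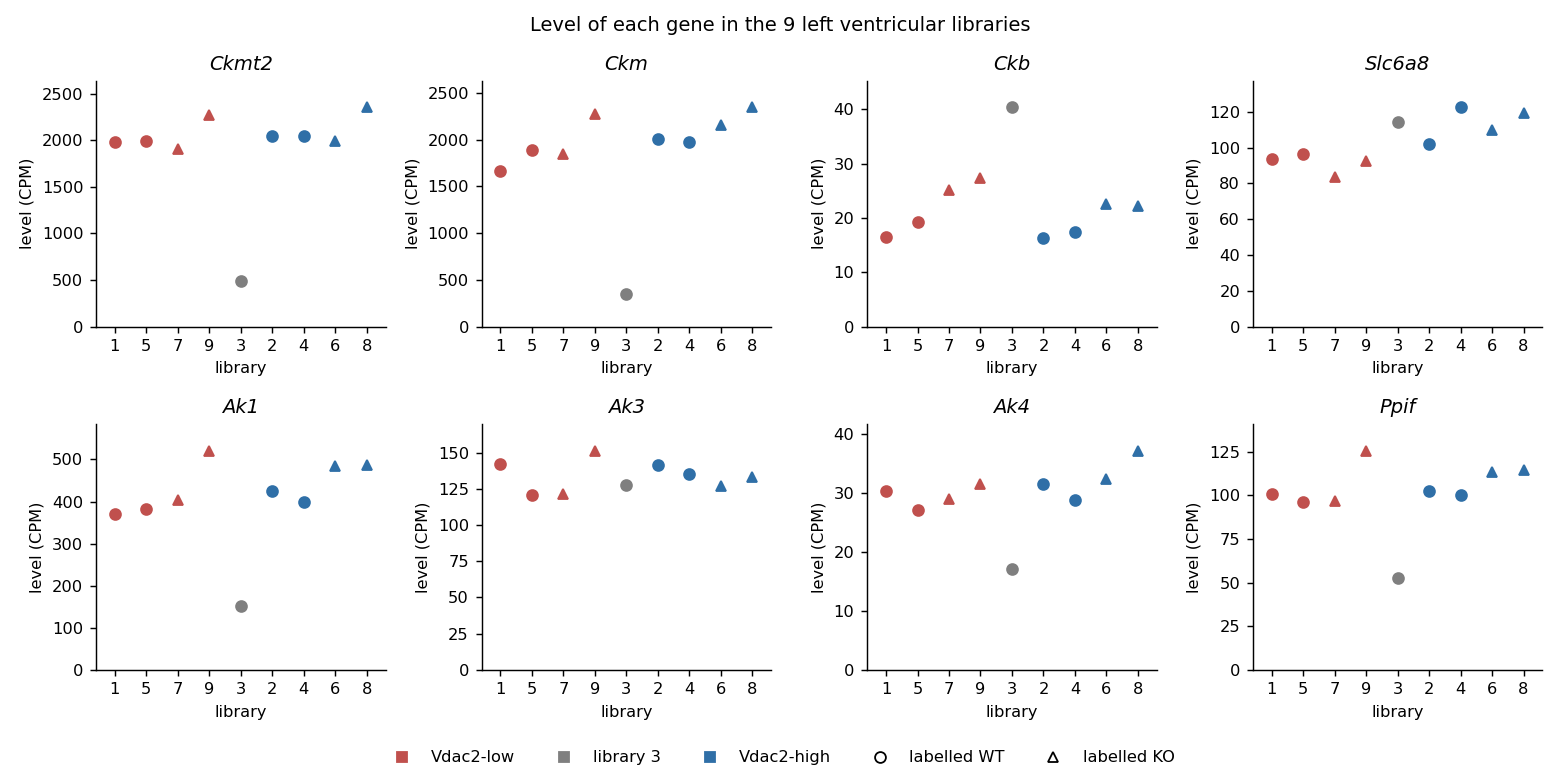
Level of each gene in CPM (linear axes from 0) in the 9 libraries, with Vdac2-low libraries in red, Vdac2-high in blue, library 3 in grey, circles for libraries labelled WT and triangles for those labelled KO. Library 3 is lowest for *Ckmt2*, *Ckm*, *Ak1*, *Ak4* and *Ppif* and highest for *Ckb*, and only *Slc6a8* has all 4 red points below all 4 blue points.

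The promoters of the 3 creatine kinases are shown because *Ckmt2* and *Ckm* were low and *Ckb* was high in the same library. Each is the 250 bases before the RefSeq start, 5′ to 3′ on the gene's strand, from RefSeq (GRCm38.p6), with every match to the E-box CANNTG in capitals, the sequence class bound by muscle basic helix-loop-helix factors. The motif reads the same on both strands as a class. The windows are chr13:91876886-91877135 on the minus strand for *Ckmt2*, chr7:19410844-19411093 on the plus strand for *Ckm* and chr12:111672339-111672588 on the minus strand for *Ckb*. The *Ckm* window lies inside the GENCODE span given above, which begins upstream of the RefSeq start with a transcript of its own.
Ckmt2: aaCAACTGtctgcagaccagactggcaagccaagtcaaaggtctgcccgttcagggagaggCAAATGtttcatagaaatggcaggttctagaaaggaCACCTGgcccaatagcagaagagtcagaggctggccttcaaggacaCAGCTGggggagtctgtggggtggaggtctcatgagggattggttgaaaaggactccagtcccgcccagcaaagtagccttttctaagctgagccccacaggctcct
Ckm: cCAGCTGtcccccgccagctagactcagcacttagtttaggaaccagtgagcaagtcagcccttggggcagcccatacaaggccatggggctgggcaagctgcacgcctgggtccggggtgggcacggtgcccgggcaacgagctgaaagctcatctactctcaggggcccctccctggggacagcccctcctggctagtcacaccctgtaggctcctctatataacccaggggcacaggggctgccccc
Ckb: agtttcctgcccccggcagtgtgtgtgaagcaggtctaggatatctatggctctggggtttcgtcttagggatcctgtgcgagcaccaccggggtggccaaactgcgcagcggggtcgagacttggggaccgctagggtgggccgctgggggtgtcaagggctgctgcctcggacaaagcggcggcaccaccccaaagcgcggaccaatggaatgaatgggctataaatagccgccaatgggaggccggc
The *Ckmt2* window held 4 matches, the *Ckm* window 1 and the *Ckb* window 0. Of 32851 windows of the same length, 66.2% held at least 1 match, so a match is common and marks no site by itself. Of the other genes with a window, *Ak1* had a match in 4 of 4 windows and *Ak4* in 1 of 4, and the single windows of *Ak3* and *Ppif* had 0.

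Per kilobase of exon, *Ckmt2* was the first of the 8 genes in every library. Over the 8 libraries it ranged from 1282 to 1584 CPM per kb with a median of 1358, above *Ckm* (573 to 806, median 684). Exon length is the union over all annotated transcripts, 1486 bases for *Ckmt2* and 2913 for *Ckm*, whose union includes the upstream transcript named above. The distance between *Ckmt2* and *Ckm* rests on those lengths. In CPM their ranges over the 8 libraries overlapped, 1905 to 2354 for *Ckmt2* and 1668 to 2346 for *Ckm*. *Ak1* followed at 142 to 201 CPM per kb (median 159.9) and *Ak3* at 38.7 to 48.6 (median 43.0). The next neighbours, *Ppif* (19.0 to 24.9) and *Slc6a8* (16.1 to 23.5), overlapped, and so did *Ckb* (5.62 to 9.46) and *Ak4* (5.82 to 8.01). In library 3 the order below *Ak3* became *Slc6a8* (22.0 CPM per kb), *Ckb* (13.9), *Ppif* (10.4) and *Ak4* (3.70).

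*Ckb* made up 0.990%, 1.02%, 1.35% and 1.19% of the summed *Ckb* and *Ckm* level per kilobase in libraries 1, 5, 7 and 9. In libraries 2, 4, 6 and 8 the share was 0.809%, 0.874%, 1.04% and 0.946%. The ranges overlapped through library 6. In library 3 the share was 10.4%, in the library with the lowest cardiomyocyte marker sum and the highest fibroblast and macrophage marker sums. The part of these markers in that share was not tested, and in bulk tissue fewer cells of a type cannot be told apart from less RNA per cell. *Ckmt2* made up 64.1% to 69.7% of the RNA of the 3 creatine kinases per kilobase in the 8 libraries. In library 3 its share was 70.9%, just above that range. The size of this share depends on the exon lengths, 1486 bases for *Ckmt2* against 2913 for *Ckm* and 2895 for *Ckb*.

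**Figure D2:**
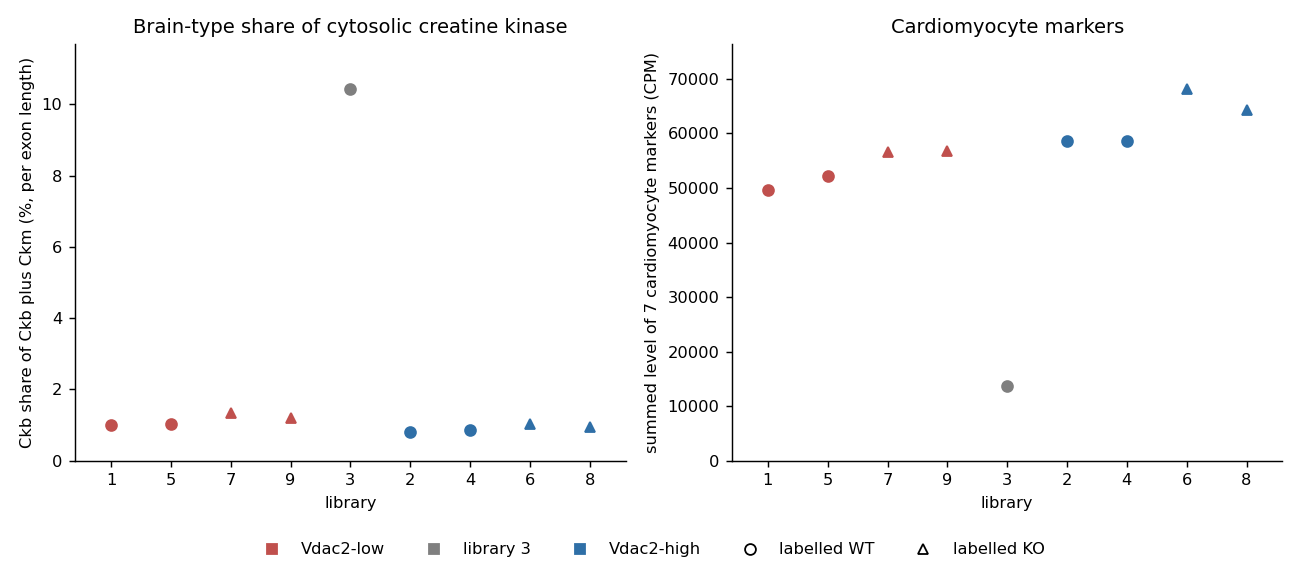
Left, *Ckb* as a percentage of *Ckb* plus *Ckm*, each per kilobase of exon; right, the summed level of 7 cardiomyocyte markers in CPM, both on linear axes from 0 with 1 point per library. Library 3 has the highest share, at 10.4%, and the lowest marker sum, at 13750 CPM.

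*Slc6a8* (ENSMUSG00000019558, X chromosome, 73673150 to 73682502), the plasma membrane creatine transporter, was the 1 gene of the 8 whose ranges did not meet. It was at 93.9, 96.3, 83.6 and 92.7 CPM in the Vdac2-low libraries 1, 5, 7 and 9, and at 102, 123, 109.8 and 119.6 CPM in the Vdac2-high libraries 2, 4, 6 and 8. The median log2 ratio over pairs was −0.33, and every pair was below 0 (−0.55 to −0.09). The gap was narrow, between library 5 at 96.3 and library 2 at 102 CPM. Library 3, which was under 100 CPM for *Vdac2*, had 114 CPM of *Slc6a8*, inside the Vdac2-high range. The median log2 ratio was −0.24 over the pairs within the label WT and −0.38 over those within the label KO, which are among the same 16 pairs, so their direction follows from the separate ranges. The summed cardiomyocyte markers were also lower in the Vdac2-low libraries (49565 to 56831 CPM) than in the Vdac2-high libraries (58536 to 68214 CPM), although 0 of the 7 markers had separate ranges by itself. Fibroblast markers summed to 1271 to 1342 CPM in Vdac2-low and 877 to 1154 CPM in Vdac2-high libraries, and macrophage markers to 155 to 199.8 CPM and 97.5 to 145 CPM. Singly, 1 of the 5 fibroblast markers (*Postn*) was higher in Vdac2-low libraries without overlap. The same held for 3 of the 4 macrophage markers (*Adgre1*, *Cd68* and *Ptprc*). *Pecam1*, 1 of the 3 endothelial markers, was lower in Vdac2-low libraries without overlap. At low levels, the atrial marker *Myl4* (1.87 to 2.43 against 1.59 to 1.86 CPM) was higher in Vdac2-low libraries without overlap. So was the skeletal muscle marker *Tnnt3* (0.549 to 1.62 against 0.0588 to 0.504 CPM). The part of these cell type markers in the *Slc6a8* difference was not tested.

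*Ak1* (ENSMUSG00000026817, chromosome 2, 32621758 to 32635058), the main cytosolic adenylate kinase of striated muscle, was at 369, 383, 404 and 521 CPM in libraries 1, 5, 7 and 9. It was at 425, 398, 485 and 487 CPM in libraries 2, 4, 6 and 8. Library 9 was the highest of all and the ranges overlapped, with a median log2 ratio over pairs of −0.13 (−0.40 to 0.39). Library 3 had 151 CPM, 40.9% of the lowest other library.

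*Ak3* (ENSMUSG00000024782, chromosome 19, 29020833 to 29047961), the GTP:AMP phosphotransferase of the mitochondrial matrix, was at 142, 121, 121 and 152 CPM in libraries 1, 5, 7 and 9. It was at 142, 135, 127 and 133 CPM in libraries 2, 4, 6 and 8. The median log2 ratio over pairs was −0.03 (−0.23 to 0.26). Library 3, at 128 CPM, lay within the range of the other 8, unlike the other adenylate kinases. *Cdc37l1* shares 5849 bases with *Ak3* on the opposite strand, at 76.6 to 204 CPM, and the strand setting of the counting is not given in the sources used here, so some reads of either gene may be counted with the other.

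*Ak4* (ENSMUSG00000028527, chromosome 4, 101419277 to 101466995), another adenylate kinase of the mitochondrial matrix, was the least abundant of the 3. It was at 30.4, 27.1, 28.9 and 31.5 CPM in libraries 1, 5, 7 and 9, and at 31.5, 28.9, 32.4 and 37.2 CPM in libraries 2, 4, 6 and 8. The ranges overlapped, and the median log2 ratio over pairs was −0.11 (−0.46 to 0.12). Library 3 had 17.2 CPM, 63.5% of the lowest other library. *Ak1* made up 73.2% to 79.7% of the 3 adenylate kinases per kilobase in the 8 libraries and 56.6% in library 3, where *Ak3* was within the range of the others.

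*Ppif* (ENSMUSG00000021868, chromosome 14, 25694154 to 25700468) encodes cyclophilin D, the matrix regulator of the permeability transition pore. It lies 3.85 Mb from *Vdac2*. It was at 101, 96.1, 96.7 and 126 CPM in libraries 1, 5, 7 and 9, and at 102, 100.3, 114 and 115 CPM in libraries 2, 4, 6 and 8. The Vdac2-low range enclosed the Vdac2-high range, with a median log2 ratio over pairs of −0.07 (−0.25 to 0.33). Library 3 had 52.4 CPM, 54.5% of the lowest other library.

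In all, 1 of the 8 genes (12.5%) had separate ranges in Vdac2-low and Vdac2-high libraries, and 7 overlapped. Over all genes tested, 12.1% had separate ranges, 4.93% lower and 7.16% higher in the Vdac2-low libraries, so the share among the 8 was near the background. The median of their pair ratios was −0.09, against 0.0028 over all genes tested. Among the libraries labelled WT without library 3, 4 of the 8 were separate, all lower in the Vdac2-low libraries (*Ckmt2*, *Ckm*, *Slc6a8* and *Ak1*), where 47.9% of all genes were. The widest of these was *Slc6a8*, and *Ckmt2* differed only between 1980.2 to 1991 and 2043 to 2044 CPM. Among the libraries labelled KO, 3 of the 8 were separate, where 37.8% of all genes were: *Slc6a8* and *Ak4* lower and *Ckb* higher, at 25.1 to 27.4 against 22.3 to 22.5 CPM. *Slc6a8* was separate within both labels, which its separate ranges over the 8 libraries fix.

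**Figure D3:**
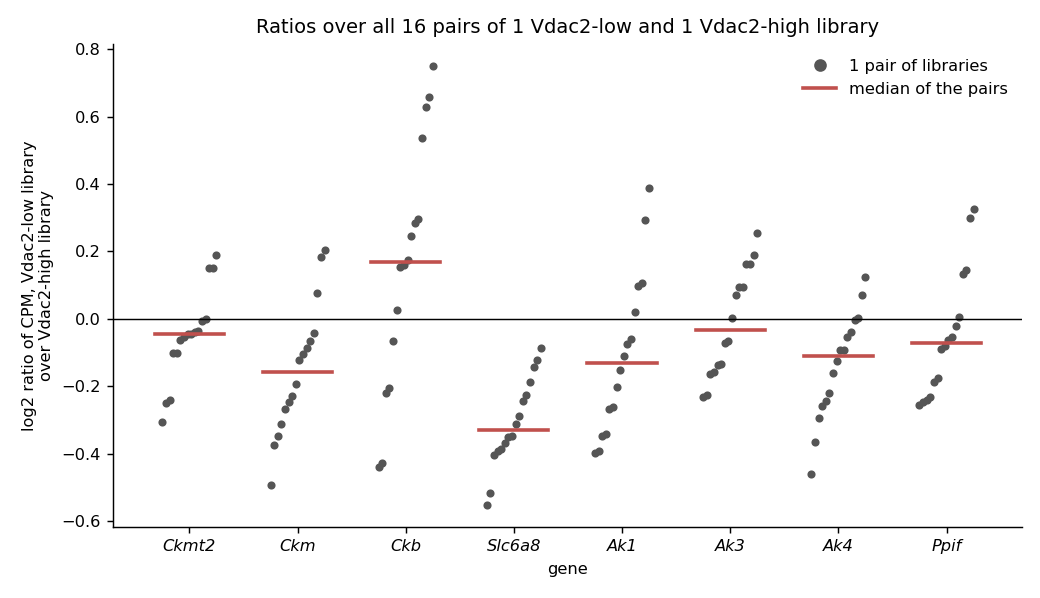
Log2 ratio of CPM for each of the 16 pairs of a Vdac2-low over a Vdac2-high library (points) and their median (red line), by gene. The *Slc6a8* points all lie below 0, from −0.55 to −0.09, and the points of the other 7 genes lie on both sides of 0.

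Between the deposited labels, the quasi-likelihood test of edgeR called 0 of the 8 genes at an adjusted p under 0.05, where 0.0551% of all genes tested were called. At an unadjusted p under 0.05 it also gave 0 of the 8, where 6.11% of all genes tested passed, and DESeq2 called 0, where 0.282% of the genes it gave an adjusted p were called. The estimates were higher in the libraries labelled KO for 6 of the 8, with a median log2 fold change of 0.29, against −0.02 over all genes tested. The largest was *Ak1*, at 345 ± 110 CPM (SD, n = 5) under the label WT and 474 ± 49.7 CPM (n = 4) under the label KO, where edgeR gave a log2 fold change of 0.46, a standard error of 0.27 and an adjusted p of 0.679. *Ckm* gave 0.45 (standard error 0.43) and *Ckmt2* 0.32 (0.37). *Ppif* gave 0.32 (0.19), *Ak4* 0.27 (0.17) and *Ckb* 0.15 (0.27). *Slc6a8* gave −0.06 (0.13) and *Ak3* −0.0049 (0.10).

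These estimates rested in part on library 3. Without it, edgeR called 0.382% of all genes tested between the labels, and 1 of the 8, with 2 of the 8 at an unadjusted p under 0.05 (*Ckb* and *Ak1*), where 11.8% of all genes passed. The gene called was *Ckb*, whose log2 fold change went from 0.15 to 0.48, with a standard error of 0.09 and an adjusted p of 0.0482. Its call was near the threshold in edgeR, and the adjusted p from DESeq2 without library 3 was 0.000663, where DESeq2 called 1.39% of the genes it gave an adjusted p. The estimates of *Ckm* and *Ckmt2* went down to 0.19 and 0.07, *Ak1* to 0.26, *Ppif* to 0.17 and *Ak4* to 0.13, with edgeR adjusted p-values of 0.302 to 0.777. The *Ckb* difference is one between the labels as deposited, which coincide with lane and sex, and each label holds libraries of low and of high *Vdac2*.

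**Figure D4:**
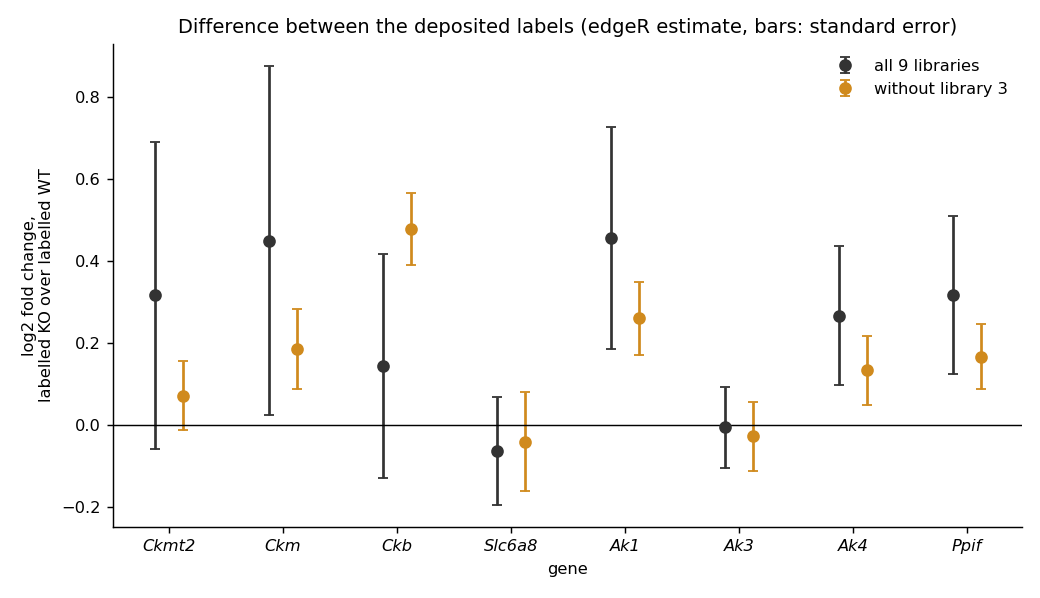
Log2 fold change of the libraries labelled KO over those labelled WT from edgeR (points) with standard errors (bars), on all 9 libraries (black) and without library 3 (orange). Without library 3 the bars of *Ckm* and *Ckmt2* shorten and the *Ckb* estimate goes from 0.15 to 0.48.

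Of 53 other genes of phosphate transfer, adenine nucleotide metabolism and the cyclophilins found in the table, 47 were tested. In the Vdac2-low libraries 3 were lower without overlap (*Adk*, *Adsl* and *Nt5c1a*), 5 were higher (*Guk1*, *Ada*, *Nt5e*, *Slc16a12* and *Ppib*) and 39 overlapped. The share with separate ranges was 17.0%, against 12.1% over all genes tested, and the median pair ratio was 0.08. Between the labels edgeR called 0 of the 47, with 2 at an unadjusted p under 0.05 (6.11% of all genes tested) and a lowest adjusted p of 0.679. *Adk*, which phosphorylates adenosine to AMP, was at 154 to 174 CPM in Vdac2-low and 204 to 236 CPM in Vdac2-high libraries, with 98.3 CPM in library 3. It lies 0.377 Mb from *Vdac2* on chromosome 14.

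The enzymes of creatine synthesis were near the lower end of the range. *Gatm*, which makes guanidinoacetate, was at 4.22 to 6.65 CPM in Vdac2-low and 3.32 to 4.87 CPM in Vdac2-high libraries, and *Gamt*, which methylates it to creatine, was at 2.89 to 3.58 and 2.07 to 2.89 CPM. Both pairs of ranges met, that of *Gamt* by a margin smaller than the rounding, and both genes were highest in library 3 (9.01 and 4.48 CPM). *Slc25a4*, the main ADP/ATP carrier of muscle, was at 3959 to 4699 CPM in Vdac2-low and 4465 to 5208 CPM in Vdac2-high libraries, with 1035.5 CPM in library 3, so it was low there like *Ckmt2*. *Slc25a5*, the carrier isoform of many other tissues, was at 78.5 to 93.2 and 74.9 to 78.8 CPM, with 83.5 CPM in library 3.

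*Prkaa2*, the main catalytic subunit of the AMP-activated kinase in heart muscle, was at 219.7 to 306 CPM in Vdac2-low and 248 to 273 CPM in Vdac2-high libraries, and its regulatory subunit *Prkag2* at 19.3 to 27.7 and 16.5 to 20.2 CPM. Library 3 had 145 CPM of *Prkaa2*, the lowest, and 27.4 CPM of *Prkag2*. *Ampd3*, an AMP deaminase, was at 20.3 to 29.5 and 21.2 to 30.7 CPM, with 50.1 CPM in library 3. The nucleoside diphosphate kinase *Nme1* was at 8.88 to 12.7 and 7.36 to 9.89 CPM, and 41.2 CPM in library 3. *Nme2* (0.761 to 1.53 CPM over the 8 libraries) and *Ppia*, cyclophilin A (5.79 to 7.21 CPM), have near-identical copies in the genome, and how multiply aligned reads were counted is not given in the sources used here, so their levels are uncertain.

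The genes whose pattern over the 9 libraries was most like each of the 8 were named by Pearson's r of log2(CPM + 0.5), as a description. *Ckmt2* was nearest to *Pln* (0.998), the phospholamban gene, which is also 1 of the 7 cardiomyocyte markers, and then to *Ptgr2* and *Phtf2*. *Ckm* was nearest to *Mdh1* (0.999), cytosolic malate dehydrogenase, then *Slc25a12* and *Ndufv1*. *Ppif* was nearest to *Aldoa* (0.996), muscle aldolase, then *Got2* and *Prpf19*. *Ak1* was nearest to *St6galnac6* (0.998), *Zfp787* and *Dmpk*, and *Ak4* to *2210011C24Rik* (0.990), *Gkap1* and *Ypel2*. *Ckb* was nearest to *Sirt7* (0.980), *Pbdc1* and *Map3k3*. *Slc6a8* was nearest to *Bdnf* (0.941), *Scx* and *Htr7*, and *Ak3* to *Gm4217* (0.930), *2310075C17Rik* and *Fgfbp3*. All points share the normalization, and library 3 lies far from the rest for most of these genes. Without it, 3 of the 24 genes stayed among the nearest 3, which were *St6galnac6* and *Zfp787* for *Ak1* (r of 0.987 and 0.983) and *Aldoa* for *Ppif* (0.973).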

How the data were processed

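Total RNA of the left ventricle was depleted of ribosomal RNA and sequenced. The authors deposited raw counts per Ensembl gene, without normalization, after alignment to GRCm38 (STAR 2.7.2c and featureCounts 1.6.3 per the submitters' processing notes, with DESeq2 also named). The strand setting, annotation release and handling of multiple alignments are not given in the sources used here. No column was left out. The study removed 1 WT sample for RNA quality without naming it, so all 9 libraries were used.

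Members, lists and library sets were chosen with earlier results of these data known. The genes named are the 8 members in every library, *Vdac2*, 12 genes of the pathway list picked whatever their values (1 of them is not reported here), and for each member the 3 genes of most like pattern. Also named are the list's genes with separate ranges, and markers, *Xist* and *Cdc37l1*, which were chosen after their values were seen. The pathway list held 55 names.

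Groups follow the deposited labels. edgeR 4.0.16 (R 4.3.3) was run with filterByExpr, TMM and the robust quasi-likelihood F-test, with Benjamini-Hochberg adjustment over all genes tested. CPM use the TMM-normalized library size (library 3's factor was 1.30). The Vdac2-low and Vdac2-high sets come from a measured level and were given no mean or test. The fit was tested on simulated data. No 2 libraries held the same counts within sampling noise (lowest chi-square per degree of freedom 7.13). Symbols, coordinates and exon lengths are from GENCODE M21 (GRCm38), and promoters from RefSeq (7 of 8 members matched). Alternatives were DESeq2 1.42.0, RLE, upper-quartile or total-count scaling, no low-count filter, mitochondrially encoded genes left out, and each library left out.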

Additional observations from a re-analysis of the deposited data

Results flagged for a closer look

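Among the 5 libraries labelled WT, library 3 lay far from the others on the log2 CPM scale for 6 of the 8 genes. Its gap to the nearest other library, as a fraction of the group's whole range, was 0.978 for *Ckmt2*, 0.895 for *Ckm*, 0.864 for *Ak1*, 0.749 for *Ak4* and 0.906 for *Ppif*, where it was lowest. It was 0.812 for *Ckb*, where it was highest. In all, 18 such groups were examined (the 8 genes and *Vdac2* in each label), and chance gives about 1 in 20 groups; the genes share this library, so their gaps are not independent.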

How the results depend on the processing

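The number of the 8 genes called between the labels was 0 under the other normalizations, DESeq2, no filter and without mitochondrially encoded genes, and 0 to 1 with each library left out. It was 1 (*Ckb*) only without library 3, with edgeR, with RLE (log2 fold change 0.48) and with DESeq2 (0.48), these last 2 chosen after seeing the data. Over all genes, 9 were called, against 62 by DESeq2, 5 to 62 with each library left out (5 without library 1, 2 or 4 and 62 without library 3), and, without library 3, 273 by DESeq2 and 60 with RLE. The label estimates near 0 changed sign: *Slc6a8* ranged from −0.150 to 0.0208 with each library left out (0.0208 without library 7), and *Ak3* from −0.0722 to 0.0386, with 0.00609 under upper-quartile scaling and 0.0217 without the filter. The estimate of *Vdac2* (0.35) also changed sign, from −0.23 without library 8 to 0.86 without library 2. *Ckb* (0.15) went to 0.06, 0.05, 0.07 and 0.10 without library 1, 2, 4 or 5 and to 0.08 without library 9. The cause was not tested.

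The number of the 8 with separate ranges was 1 under each scaling, 0 with library 3 counted as Vdac2-low (where 10.4% of all genes were separate), 4 within the labelled WT and 3 within the labelled KO, and 1 to 2 with each library left out: *Ak4* joined without library 4 and *Ckm* without library 9, where 15.9% and 17.8% of all genes were separate. Over all genes 1973 had separate ranges, against 7812 and 6168 within the labels, where fewer libraries make separation more frequent. The 128 recomputed medians of the pair ratios moved by less than the spread between libraries, but several were not stable in size: with 1 library left out, *Ak1* ranged from −0.23 to −0.07, *Ppif* from −0.13 to −0.04, *Ckb* from 0.09 to 0.27, *Ckm* from −0.24 to −0.09, *Ak4* from −0.19 to −0.07, and *Ak3* changed sign, from −0.10 to 0.08 (also 0.06 within the labelled KO), while *Slc6a8* ranged from −0.36 to −0.27. With total counts only, the medians of *Ckmt2* and *Ak3* turned to 0.0049 and 0.03, and *Ckm*, *Ak1*, *Ak4* and *Ppif* went to −0.08, −0.08, −0.06 and −0.0079. Of the 24 like genes, 3 were kept without library 3. No paired analysis was possible because the labels give no replicate numbers that the groups share.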
